A study of Mus musculus and Homo sapiens with 10 samples.

Results

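The 8 AP-1 genes Fos, Fosb, Fosl1, Fosl2, Jun, Junb, Jund and Atf3 were examined for DNA double-strand break ends in mouse enterocytes. They were taken by symbol from the GRCm38 RefSeq annotation, each as its gene body with 2 kb on each side (its window), and were 8 of the 21887 genes annotated as protein-coding on the main chromosomes. All 8 were among the 19150 windows that passed a filter on low counts. The series holds 10 in-suspension BLISS libraries, in which break ends are ligated to an adapter so that each sequenced end marks a break, and 6 of them are used here. These came from enterocytes of the jejunum, the absorptive cells of the small intestine, sorted as high, mid or negative for Cd73 (Nt5e), with 2 libraries of each. The labels give no strain, age, sex or treatment, and leave unsaid whether separate mice gave the 2 libraries of a gate. P-values below thus rest on the spread between these libraries alone, which may be technical.

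AP-1 is a dimeric transcription factor of basic leucine zipper (bZIP) proteins. Jun proteins pair with each other or with Fos proteins, and the dimer binds a short palindrome in promoters and enhancers. Several of its genes, Fos, Fosb, Jun, Junb and Atf3 among them, are immediate early genes that are switched on within minutes of growth factor or stress signalling, and in the intestine AP-1 is known for roles in proliferation and injury repair.

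Nuclear break ends numbered 1522615 and 1272771 in the Cd73 high libraries, 4757961 and 5160171 in the mid libraries, and 13043514 and 12585228 in the negative libraries. The 8 windows together held 256 and 175 ends in the high, 707 and 1006 in the mid, and 2395 and 2785 in the negative libraries, so values of a single gene are least precise in the high gate. Density is given as ends per kb of window per 1000000 nuclear ends of the library, which is a share of a library's ends and not a number of breaks per cell. Because ends at 1 position may come from amplified copies of 1 molecule, ends were counted in full and also once per position. Poisson and Wilson intervals cover counting error only. Intervals of fold changes are normal intervals, with an SE worked back from the fold change and the F value of its test. The count files name no cell type, and break ends are not expression, so the labelled cell type could not be checked by marker expression. In the window of Nt5e, the gene of the sorted marker, the density was 1.06 and 0.713 in the high libraries, 0.837 and 0.815 in the mid libraries, and 0.590 and 0.624 in the negative libraries.

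Junb and Jun, which encode DNA-binding partners of the Jun group, carried the densest break ends of the family. The Junb window (chromosome 8, 84976909 to 84978748 for the gene body, minus strand) held 39 and 29 ends in the high libraries, 90 and 154 in the mid libraries, and 340 and 446 in the negative libraries. Its density was 4.39 and 3.90 in the high libraries, 3.24 and 5.11 in the mid libraries, and 4.46 and 6.07 in the negative libraries. The ranges of the 3 gates overlapped except for high against negative, where both high values lay below both negative values. Among all 21887 protein-coding windows, Junb ranked between place 1 and place 4 in each library, with a median place of 1. It stood at 5.97 to 10.3 times the median window of its library. Among genes with bodies of 1840 to 21369 bp, the range of the 8 genes, it stood at 4.90 to 7.39 times the median. Junb is the shortest in that range, so its length was not closely matched.

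The Jun window (chromosome 4, 95049036 to 95052222, minus strand) was the second densest of the family in all 6 libraries. Its density was 3.56 and 2.84 in the high libraries, 2.49 and 3.88 in the mid libraries, and 2.84 and 3.86 in the negative libraries. The 3 gates overlapped fully. Jun ranked from place 5 to place 33 among all windows. Jund, the third Jun gene, whose product is present in many resting cells, was sparser (chromosome 8, 70697739 to 70700616, plus strand), with 1.62 and 1.26 in the high libraries, 1.53 and 2.14 in the mid libraries, and 1.85 and 2.13 in the negative libraries. Both high values lay below both negative values, while mid overlapped with negative.

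The Fos genes encode partners that bind DNA only together with a Jun protein. Fos (chromosome 12, 85473890 to 85477274, plus strand) had a density of 2.22 and 1.17 in the high libraries, 1.76 and 2.34 in the mid libraries, and 2.74 and 2.71 in the negative libraries. The high libraries differed from each other by more than the mid from the negative mean, and rested on 25 and 11 ends, with exact Poisson 95% intervals of 16.2 to 36.9 and 5.49 to 19.7. Fosb (chromosome 7, 19302696 to 19310118, minus strand) had 1.78 and 1.24 in the high libraries, 1.64 and 2.02 in the mid libraries, and 2.21 and 2.90 in the negative libraries. In both genes the high and the mid values lay below both negative values.

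Fosl1 (chromosome 19, 5447698 to 5455938), which encodes Fra-1, had a density of 1.87 ± 0.0717 in the high gate, 1.88 ± 0.428 in the mid gate and 2.17 ± 0.186 in the negative gate (SD, n = 2 each). Its window covers the 4401 bp gene Ccdc85b, so ends of the 2 genes cannot be told apart there. Fosl2 (chromosome 5, 32136472 to 32157840, plus strand), which encodes Fra-2 and is the longest of the 8, had the narrowest spread between gates: 1.19 ± 0.189 in the high, 1.17 ± 0.0621 in the mid and 1.19 ± 0.113 in the negative gate (SD, n = 2 each). The gates overlapped.

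Atf3, a stress-induced bZIP gene whose product pairs with Jun proteins and can repress transcription, had the clearest separation of the high gate (chromosome 1, 191170296 to 191183333, minus strand). Its window held 20 and 16 ends in the high libraries, 103 and 127 in the mid libraries, and 335 and 375 in the negative libraries. This is a density of 0.771 and 0.738 in the high libraries, 1.27 and 1.44 in the mid libraries, and 1.51 and 1.75 in the negative libraries. The 3 gates did not overlap. Its place among all windows was 5142 and 5262 in the high libraries, and between 918 and 1540 in the other 4 libraries.

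In order of density, Junb lay above Jun in each library, and the places from the third to the eighth changed between libraries. In the high gate the values of Fos overlapped those of Fosl1, Fosb, Jund and Fosl2, and Atf3 lay below the other 7 genes. In the mid and negative gates, Atf3 and Fosl2 were the lowest 2.

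**Figure D1:**
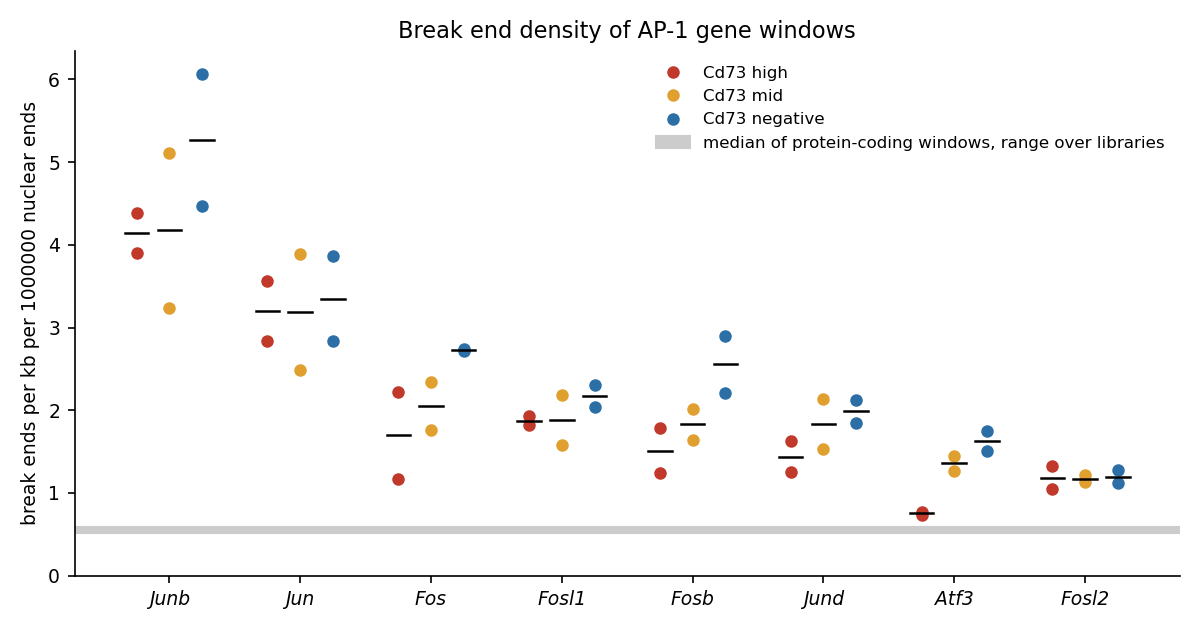
Density of break ends (ends per kb per 1000000 nuclear ends, vertical axis) in the window of each AP-1 gene; each point is 1 library, black bars are means of 2 libraries, and the gates run high, mid, negative within each gene. The grey band is the median protein-coding window; Junb and Jun stand at 4.58 to 10.3 times it, and the 2 high libraries of Atf3 (0.771 and 0.738) stand at 1.44 and 1.42 times it.

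The windows were set against their surroundings, from 2 kb to 50 kb beyond each gene end, to see whether the density belonged to the gene or to its region. Jun stood out most, with a density of 7.34 ± 2.33 times its surroundings in the high gate, 7.06 ± 2.44 in the mid gate and 7.76 ± 2.48 in the negative gate (SD, n = 2 each). Junb was at 4.56 ± 0.362, 3.98 ± 0.627 and 4.60 ± 0.449 times its surroundings in the high, mid and negative gates. Those surroundings had a density of 0.915 ± 0.148 in the high, 1.03 ± 0.169 in the mid and 1.14 ± 0.136 in the negative gate, above that of the median window. Jund was at 1.60 to 1.90 times and Fosb at 1.61 to 2.39 times their surroundings in single libraries. Atf3 was at 1.14 and 1.43 times its surroundings in the high libraries, 2.41 and 2.71 in the mid libraries, and 2.73 and 2.87 in the negative libraries.

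Over the 8 windows together, the density was 1.64 ± 0.232 in the high gate, 1.84 ± 0.351 in the mid gate and 2.17 ± 0.285 in the negative gate (SD, n = 2 each). The local enrichment was 2.40 ± 0.109 in the high, 2.43 ± 0.168 in the mid and 2.65 ± 0.136 in the negative gate. With ends counted in full, high and negative did not overlap in either measure, and mid and negative did not overlap in local enrichment. However, 2 libraries against 2 cannot give a two-sided exact permutation p below 0.33, the value each of these reached. In all, 12 such tests were run, 4 measures in 3 comparisons, and none can pass a threshold of 0.05.

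Within the windows, ends gathered at different places in different genes. In Junb, the 250 bases before the gene start were the densest 250 bp step of the window and held 9 and 10 ends in the high libraries, 18 and 29 in the mid libraries, and 84 and 112 in the negative libraries. These bases held 23.9% of the window's ends over the 6 libraries. In Fosl2 the same step was also the densest, with 13 and 5 ends in the high, 12 and 22 in the mid, and 36 and 39 in the negative libraries. The promoter of Fosl2 (RefSeq, GRCm38.p6) is shown because its densest step lies here, that of Fos because most of its ends lie at 1 base, and that of Jun for contrast. Each is written 5′ to 3′ on the gene's strand and ends at the base before the gene start. Capitals mark bases at which 3 or more of the 6 libraries list a break end; the files give no strand for an end.

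Fosl2, chr5:32136222-32136471, plus strand: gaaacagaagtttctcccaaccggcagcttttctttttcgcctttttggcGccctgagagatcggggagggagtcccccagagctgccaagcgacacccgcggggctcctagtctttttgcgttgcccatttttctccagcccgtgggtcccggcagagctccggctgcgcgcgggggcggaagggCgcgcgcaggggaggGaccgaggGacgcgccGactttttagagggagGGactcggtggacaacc

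Fos, chr12:85473640-85473889, plus strand: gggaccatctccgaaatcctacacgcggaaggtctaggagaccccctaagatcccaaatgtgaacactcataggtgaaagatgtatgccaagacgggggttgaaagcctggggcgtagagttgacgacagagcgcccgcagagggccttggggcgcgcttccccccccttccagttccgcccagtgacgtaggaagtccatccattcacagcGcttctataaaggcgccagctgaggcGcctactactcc

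Jun, chr4:95052223-95052472, minus strand: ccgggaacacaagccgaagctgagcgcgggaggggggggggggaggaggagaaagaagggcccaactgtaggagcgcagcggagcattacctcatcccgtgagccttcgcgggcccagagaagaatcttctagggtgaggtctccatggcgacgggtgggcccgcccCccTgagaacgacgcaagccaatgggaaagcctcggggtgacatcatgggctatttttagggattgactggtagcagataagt

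Fosl2 had 7 such recurrent bases of 250, Fos and Jun had 2 each, and Junb had 25. In Junb the fullest of them, counted from the gene start at 0, were -55, with 1 and 1 ends in the high, 0 and 4 in the mid and 12 and 9 in the negative libraries, and -52, with 0 and 1, 1 and 0, and 8 and 16. Fos had 1 and 0 ends in the whole stretch in the high libraries, 8 and 14 in the mid libraries, and 39 and 41 in the negative libraries. Of these, 0 and 0, 4 and 10, and 25 and 23 lay at the single base -12. Jun had 0 and 2, 4 and 5, and 11 and 19 ends, 4.51% of its window of 7.187 kb. The densest step of Jun lay elsewhere, from +1250 to +1499 within the gene body.

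Motifs were searched on both strands of these 250 bases. The letters TATAAA, the TATA box, occurred in Fos with the first base at -33, and in 12.4% of the 32851 RefSeq promoters. The letters TGACG, the core of the cAMP response element, occurred in 4 of the 7 promoters that matched, in Fos at -129 and -66, in Fosb at -60, in Junb at -106 and in Atf3 at -7, and in 17.8% of all promoters. The letters GGGCGG, the GC box, occurred in Fos, Fosb, Fosl2, Jun and Atf3 and in 32.7% of all promoters. Jun held TGACATCA at -45, a variant of the AP-1 site found in 2.93% of promoters, and CCAAT at -65. Junb held CCAAT at -36, and CCAAT was present in 33.8% of all promoters. The consensus letters TGACTCA were found in none of the 7; Fosl1 had no entry in the table.

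Within 500 bp of the gene start lay 23.6 ± 0.824% of ends in the high gate, 22.6 ± 0.182% in the mid gate and 23.9 ± 0.0347% in the negative gate (SD, n = 2 each; 7 genes together). The high and negative gates overlapped and differed by less than the spread of the high libraries. The mid gate overlapped with neither, its libraries at 22.4% and 22.7% lying below the others (exact permutation p = 0.33 in both comparisons, the lowest possible). The genes differed among themselves: Junb held 30.8% and 44.8% of its ends there in the high libraries, 34.4% and 26.0% in the mid libraries, and 40.6% and 35.9% in the negative libraries. Jund held 0 of 17 and 1 of 11 ends there in the high libraries (Wilson 95% intervals of 0 to 18.4% and 1.62 to 37.7%), 10 of 50 and 6 of 76 in the mid libraries, and 10.8% and 11.4% in the negative libraries.

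Some ends piled up at single positions. In Fosb, position +1387 held 0 and 0 ends in the high libraries, 5 and 11 in the mid libraries, and 29 and 32 in the negative libraries, and position +6109 held 4 and 1, 5 and 9, and 24 and 33 ends in the same order of gates. The 5 fullest positions of Fosb held 28.4% of its ends, against 17.5% in Fos, 16.3% in Atf3 and 9.95% in Fosl2. The Fosb step from +1250 to +1499 held 3 of 49 ends in the high gate (6.12%, Wilson 95% interval 2.10 to 16.5), 44 of 208 in the mid gate (21.2%) and 166 of 746 in the negative gate (22.3%, 19.4 to 25.4). The Fos step from -250 to -1 held 1 of 36 ends in the high gate (2.78%, 0.492 to 14.2) against 80 of 516 in the negative gate (15.5%, 12.6 to 18.9). In Fosl2 the order was the reverse: the step from -250 to -1 held 18 of 85 ends in the high gate (21.2%, 13.8 to 31.0), 34 of 295 in the mid gate and 75 of 776 in the negative gate (9.67%, 7.78 to 11.9). In the high replicate 1, 5 of its 13 Fosl2 ends lay at the single base -49. In Jun the step from +500 to +749 held 11 of 65 ends in the high gate (16.9%, 9.72 to 27.8), 14 of 229 in the mid gate (6.11%) and 45 of 615 in the negative gate (7.32%, 5.51 to 9.65). With both libraries of a gate pooled, the high and negative intervals overlapped in Fos and not in the Fosb, Fosl2 and Jun steps. Library by library, the Fosb step held 1 of 31 ends (3.23%, 0.572 to 16.2) and 2 of 18 (11.1%, 3.10 to 32.8) in the high gate, against 22.2% and 22.3% in the negative gate. The Fosl2 step held 25.5% (15.5 to 38.9) and 14.7% (6.45 to 30.1) in the high libraries, against 9.76% and 9.58% in the negative libraries. The Jun step held 6 of 39 ends (15.4%, 7.25 to 29.7) and 5 of 26 (19.2%, 8.51 to 37.9) in the high libraries, against 6.02% and 8.31% in the negative libraries. The separation of the pooled Fosb and Fosl2 values thus rested on high replicate 1: the interval of high replicate 2 alone overlapped those of the negative libraries in both, and in Jun those of both high libraries did. These steps were chosen with their values in view, and the pooled intervals join 2 libraries and cover counting error only.

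In Atf3 the fullest positions were +787, with 0 and 1 ends in the high, 1 and 4 in the mid and 22 and 18 in the negative libraries, and -1872, with 0 and 1, 4 and 2, and 15 and 15. Over all 8 windows, 348 of 3442 positions (10.1%) were listed in 3 or more libraries and held 41.5% of ends, whereas over all nuclear positions these were 3.18% and 13.4%. Denser windows repeat positions more easily, so the 2 figures are given side by side without a test. A sum of at least 77 ends, that of Fosb +1387, was reached at 751 of the 28179560 nuclear positions.

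**Figure D2:**
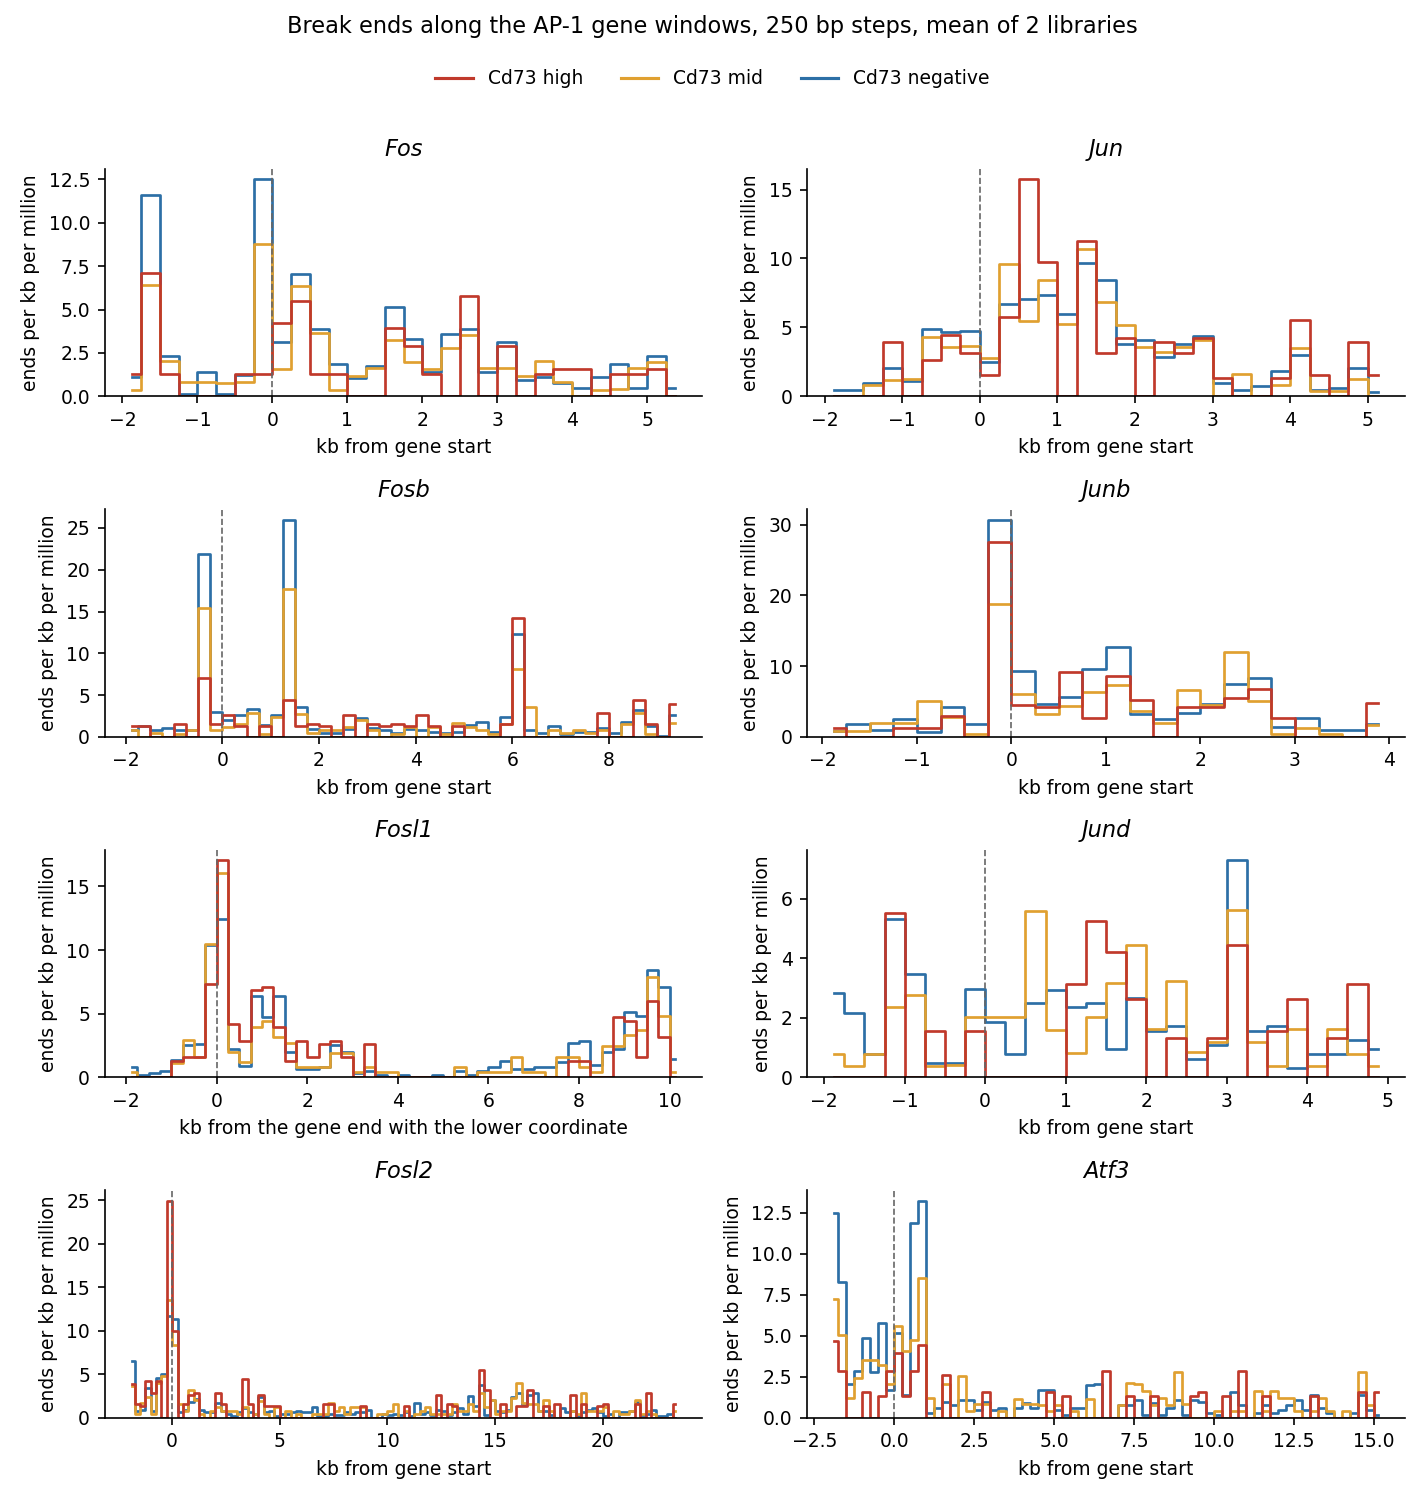
Break ends along each AP-1 window in steps of 250 bp; the horizontal axis is the distance in kb from the gene start (dashed line; for Fosl1 from the gene end with the lower coordinate), the vertical axis the density per 1000000 ends, and each line the mean of the 2 libraries of a gate. Junb peaks just before the start, Fosb in 3 narrow places, and Jun within the gene body. Fosl2 peaks just before the start in the high gate and on both sides of it in the negative gate (75 ends before, 73 after).

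The gates were then compared gene by gene in a fit over all 19150 windows with edgeR's quasi-likelihood test, and an adjusted p (Benjamini-Hochberg) under 0.05 was called. None of the 8 AP-1 genes was called in any comparison. Over all windows, 0.00522% were called in high against negative (1 window, Cdk5rap2), and 0% in mid against negative and in high against mid. At an unadjusted p under 0.05, 2 of the 8 passed in high against negative (Atf3 and Fosb, 9.14% of all windows), 1 in mid against negative (Fosb, 3.66%) and 1 in high against mid (Atf3, 4.40%). DESeq2 also called 0 of 8 in each comparison (0.00522%, 0% and 0% of all windows), with 2, 0 and 1 at an unadjusted p under 0.05 (4.40%, 0.287% and 1.54% of all windows).

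Atf3 showed the widest difference of the family in high against negative, with -0.96 on the log2 scale (SE 0.250, adjusted p = 0.246), with both high libraries below both negative ones. Its value in high against mid was -0.77 (SE 0.266, adjusted p = 0.998) and in mid against negative -0.19 (SE 0.156, adjusted p = 0.998); these comparisons share libraries. For Fosb the values were -0.59 in high against negative (SE 0.229, adjusted p = 0.379) and -0.41 in mid against negative (SE 0.157, adjusted p = 0.998), and its high and mid libraries overlapped. Fos had -0.51 in high against negative (SE 0.265, adjusted p = 0.564); without high replicate 1 this was -1.06, so 1 library decides its size. Jun and Fosl2 had 0.10 and 0.15 in high against negative, with 95% intervals of -0.33 to 0.52 and -0.24 to 0.53.

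By densities alone, 6 of the 8 genes (Fos, Fosb, Fosl1, Junb, Jund and Atf3) had both high libraries below both negative libraries, where 36.5% of all windows did. In mid against negative these were Fos, Fosb and Atf3 (3 of 8; 24.0% of all windows), and in high against mid Atf3 (1 of 8; 23.0%). The opposite, both libraries of the first gate above both of the second, held for 0 of 8 genes in each comparison, where 10.7%, 9.37% and 10.8% of all windows showed it in high against negative, mid against negative and high against mid. The median log2 fold change of the 8 genes in high against negative was -0.25, against -0.003 over all windows. Dense windows as a class leaned the same way: the median was 0.17 in the sparsest decile of windows and -0.25 in the densest decile, which held 7 of the 8 genes, Fosl2 lying in the decile below. With this trend on density taken out, 4 of the 8 genes lay below 0; Atf3 had -0.76 (adjusted p = 0.367), Fosb -0.29, Fos -0.20, Junb 0.23 and Jun 0.47. The trend was computed from the same libraries, and what moves with it was not tested.

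**Figure D3:**
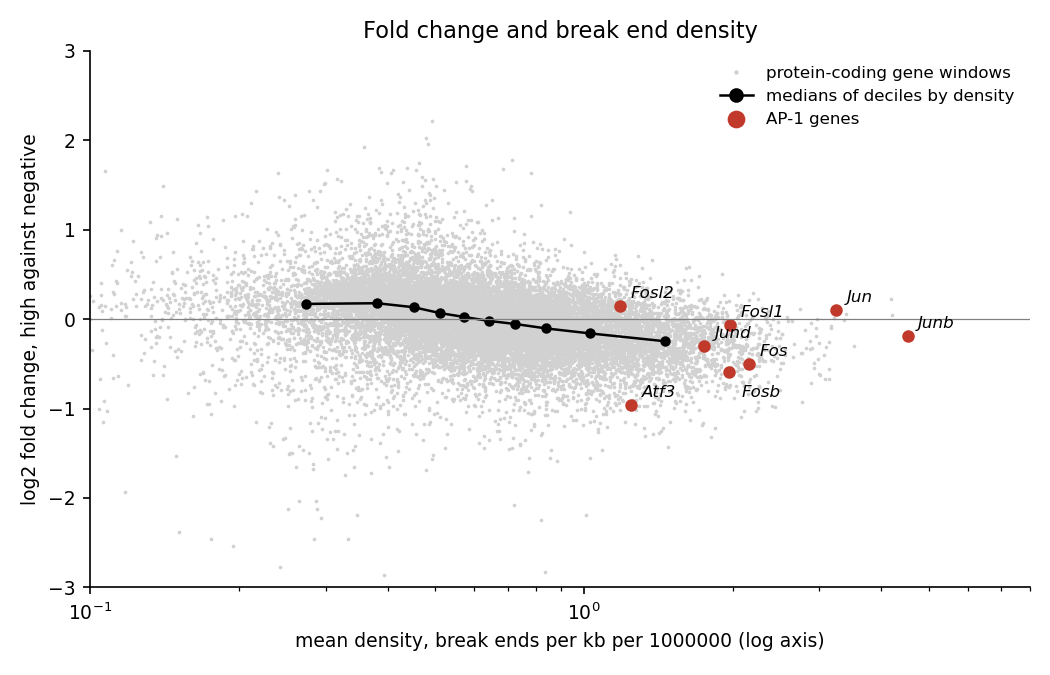
Log2 fold change in high against negative (vertical axis) over the mean density of each tested window (horizontal log axis); grey points are all windows, the black line joins medians of deciles by density and red points are the AP-1 genes. The medians run from 0.17 in the sparsest to -0.25 in the densest decile, and Atf3 lies lowest of the 8; 73 windows fall outside the plotted range.

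Counting each position once changed the picture at the depths as deposited. Ends per position over the 8 windows were 1.06 ± 0.0490 in the high, 1.27 ± 0.0770 in the mid and 1.67 ± 0.0820 in the negative gate (SD, n = 2 each), an order that follows depth. After thinning to equal depth the mid gate had 1.09 and the negative gate 1.14. With positions counted once, 0 of 8 genes were called (0.00525%, 0.00525% and 0% of windows in high against negative, mid against negative and high against mid), and at an unadjusted p under 0.05 there were 1, 0 and 1 (4.83%, 2.69% and 3.69%). The median in high against negative was 0.13 with 5 of 8 genes above 0. Atf3 had -0.55 (SE 0.249, adjusted p = 0.982), Fosb 0.01, Fos -0.07, Junb 0.29 and Jun 0.41. With positions counted once after thinning to equal depth, the median was -0.21 and 6 of 8 genes lay below 0, among them Atf3 at -1.13 and Fosb at -0.31. With ends counted in full after thinning, the median was -0.29 and 6 of 8 genes lay below 0. Between full and once-per-position counts, as deposited and thinned, the median was thus above 0 only with positions counted once at the deposited depths. Atf3, Fos and Jund lay below 0 under each of these settings.

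**Figure D4:**
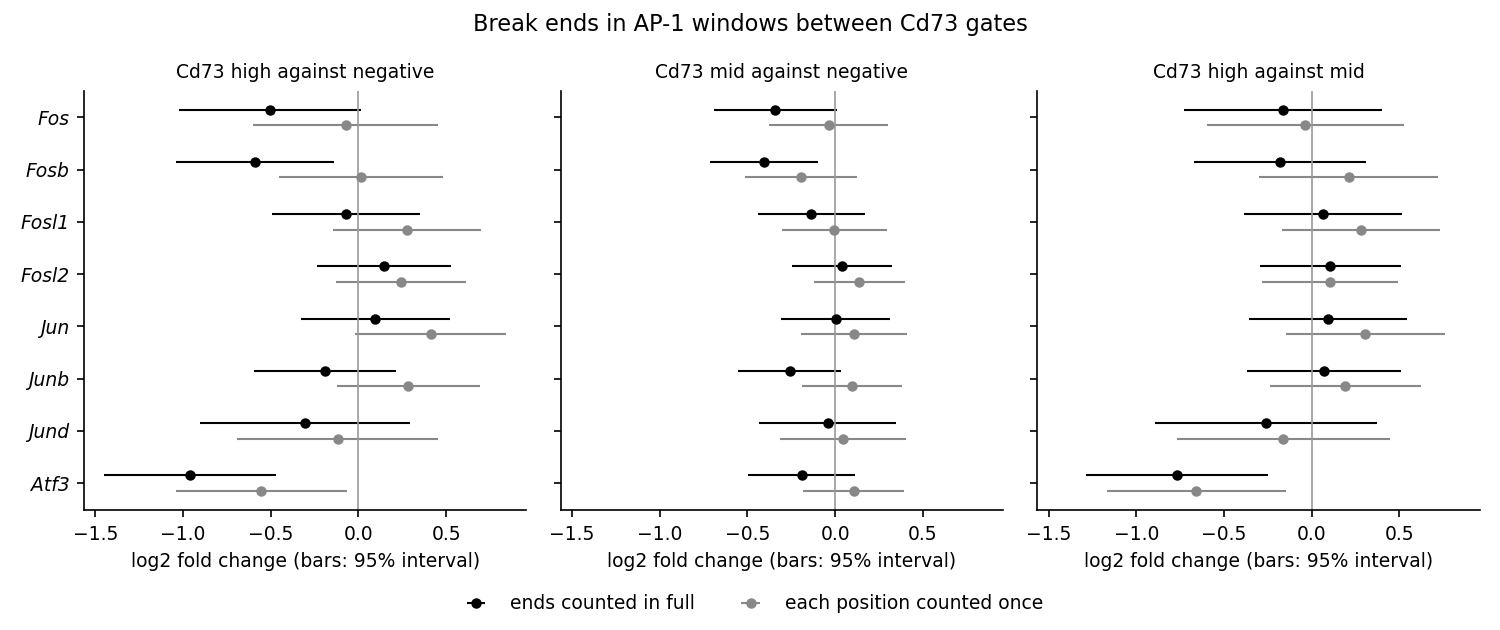
Log2 fold changes of the 8 genes in the 3 comparisons, high against negative, mid against negative and high against mid, with ends counted in full (black) and once per position (grey); bars are 95% intervals. Atf3 lies at -0.96 and -0.55 in high against negative, and all 8 genes lie higher in that comparison when positions are counted once.

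None of the genes around AP-1 was called in any comparison. Of the other bZIP genes, 0 of 18 passed. In high against negative 15 of 18 lay below 0, against 50.5% of all windows, and the median was -0.12, against -0.003 over all windows. Nfe2l2, a regulator of the oxidative stress response, had -0.39 and Atf5 -0.61 (adjusted p = 0.535 and 0.593). Of the kinases upstream of AP-1, 0 of 16 passed with a median of 0.04; Egfr, the epidermal growth factor receptor, had 0.22 and Map2k3, which activates p38, -0.35. Of the activators of Fos transcription, 0 of 8 passed with a median of -0.01; Elk1 had 0.58 and Elk3 0.25, both partners of serum response factor. Of feedback and target genes, 0 of 13 passed with a median of 0.03; Vegfa had -0.61 and Dusp6, a phosphatase of ERK, -0.45 (adjusted p = 0.365 and 0.591).

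Windows of other cells' marker genes were read for whether they move with the gates, and none of the marker lists had a called member. Of the lymphocyte markers, 5 of 5 lay above 0 in high against negative, where 50.5% of all windows lay below 0. Their median was 0.57, with Cd3g, a T cell receptor subunit, at 0.87 and Ptprc, the leukocyte marker CD45, at 0.36. Their summed ends per 1000000 were 88.0 and 70.7 in the high, 66.0 and 59.5 in the mid, and 71.2 and 55.8 in the negative libraries, and no marker of any list was at 0 in all libraries. The part of other cells in the AP-1 values was not tested. The medians in high against negative were 0.03 for 7 enterocyte, 0.06 for 5 goblet, 0.22 for 4 tuft, -0.20 for 3 enteroendocrine, 0.22 for 2 Paneth, 0.07 for 5 crypt, -0.16 for 3 stromal and 0.20 for 2 endothelial markers. Ccdc85b and Iqcn, whose bodies overlap the windows of Fosl1 and Jund, had -0.74 (adjusted p = 0.506) and 0.004 (adjusted p = 0.998).

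The windows whose levels ran most like the summed AP-1 level over the 6 libraries, of 12329 compared, included Gpank1 and Phrf1, with Pearson's r of 0.998 and 0.995 on the log2 scale of TMM-scaled counts (CPM). This is a description over 6 libraries of unequal depth and carries no test.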

How the data were processed

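In cells lysed with mild buffers, blunted break ends received an adapter and were amplified by in vitro transcription, per the labels' protocols. Reads were aligned with BWA, and GRCm38 is named for mouse, per the submitters' processing notes; how reads were filtered, and how duplicates were handled, is not stated there. The deposited files give, for each library alone, a position and an unnormalized count of break ends, without strand; whether a count is of molecules or of reads is not stated. Human TK6 libraries were not used here.

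Counts were summed per window of each protein-coding gene (GRCm38.p6 RefSeq, body with 2 kb on each side) and fitted with edgeR 4.0.16 in R 4.3.3 (limma 3.58.1; TMM, filterByExpr, quasi-likelihood F test, 3 groups in one fit). The members, lists and tests were chosen with earlier results of these data known. The genes named are the 8 members, Nt5e, genes overlapping a window, of each related list the 2 with the smallest p in high against negative (for marker lists only those of the lymphocyte list), and the 3 windows most alike, of which 1 is not reported here; Cdk5rap2, the 1 window called, was named after its value was seen. The motifs, positions and steps were also chosen after the data were seen.

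On simulated counts over 19150 windows for high against negative, 16%, 68%, 64% and 90% of windows changed 1.5, 2, 3 and 4-fold were recovered, with 5 false calls. The changed windows were drawn at random from all windows, and each window had the same dispersion (0.00647). These values are therefore not the rate of recovery for the AP-1 windows. Alternatives were scaling by library size, DESeq2 1.42.0, no filter on low counts, each position counted once, thinning to equal depth, positions over 100 ends left out, gene bodies alone, 5 kb on each side, the density trend removed, a replicate block, leaving out each library, and only the libraries compared. Python 3.11.15 was used with scipy 1.17.1, numpy 2.4.6, matplotlib 3.10.9 and pandas 2.3.3.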

Additional observations from a re-analysis of the deposited data

How the results depend on the processing

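No AP-1 gene was called in any of the 3 comparisons under 19 alternatives each, those leaving out a library among them (0 to 0). Over all windows, 0 to 5 were called in high against negative, 0 to 1 in mid against negative and 0 in high against mid, so counts of this size say little about stability. In high against negative, the log2 fold changes of Atf3, Fos and Jund kept their sign under all 19 alternatives; Atf3 ran from -1.21 (thinned to equal depth) to -0.52, and between -1.03 and -0.90 with 1 library left out. The sign changed under 2 alternatives for Fosb, Fosl2 and Jun, 3 for Junb and 4 for Fosl1. Without high replicate 1, Fos had -1.06, and with 1 library left out it ran from -1.06 to -0.18. With a replicate block, 0 members were called (0.0209%, 0% and 0% of all windows), Atf3 in high against negative had an adjusted p of 0.0659, and 2, 3 and 1 members had an unadjusted p under 0.05 (11.2%, 8.98% and 5.07% of all windows) in high against negative, mid against negative and high against mid. Deviations of same-numbered libraries correlated at -0.0316 (high and mid), -0.0413 (high and negative) and 0.346 (mid and negative). Mid and negative libraries of the same number thus varied partly together, which the main fit does not take into account. For Fosb in mid against negative the SE was 0.128 with the block and 0.157 without. The high libraries hold the fewest ends, so their values near 0 cannot show whether the numbers pair them with the others. Scaling by library size moved the median of all windows to -0.06 in high against negative.

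Means of summed values moved by more than 1 SD in these cases, and the cause was not tested beyond what each setting changes. This SD is over 2 libraries. For the share near the start it was only 0.182 points in the mid and 0.0347 in the negative gate, so small changes pass it. With each position counted once, the density was 1.55 in the negative gate, and the local enrichment 2.18 in the mid and 2.15 in the negative gate. The share near the start was then 20.7% in the mid and 19.8% in the negative gate. The high gate moved by no more than 1 SD from its density of 1.64 and its local enrichment of 2.40. High therefore no longer lay below negative in local enrichment under this count. With gene bodies alone the density was 1.86 in the negative gate. With surroundings to 20 kb the local enrichment was 2.24 in the mid and 2.48 in the negative gate. Within 1 kb of the start lay 37.4% of ends in the high, 36.9% in the mid and 38.5% in the negative gate. Thinned to equal depth, the share near the start was 19.97% in the mid and 23.1% in the negative gate, and ends per position were 1.09 and 1.14.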
